A study of Homo sapiens with 48 samples.

Results

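The ERBB family has 4 receptors, EGFR, ERBB2, ERBB3 and ERBB4, and 6 of its ligands were examined with them, namely AREG, EREG, HBEGF, TGFA, NRG1 and BTC. All 10 genes were found by symbol among the 20241 genes of an RNA-seq table of PSN1 cells. PSN1 is a pancreatic ductal adenocarcinoma line with intact BRCA1 and BRCA2. Talazoparib is an inhibitor of the DNA repair enzyme PARP1 that also traps PARP1 on DNA. Parental PSN1 cells were left untreated. TalaR-M cells had been selected with stepwise increases of Talazoparib and were kept in 50 nM Talazoparib, with 4 months on the drug, and TalaR-DF cells were such selected cells after 4 weeks without it. TalaR is used below for the origin of both groups and does not say whether the cells were resistant when sampled. Each group had 3 libraries. All of them came from this line, and the selected cells are not described as a clone, and the labels do not say whether the replicates were separate cultures, so p-values measure only the spread between these samples.

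ERBB receptors are tyrosine kinases of the cell surface that pair with each other when a ligand binds and signal through RAS and ERK and through PI3K and AKT. EGFR binds AREG, EREG, TGFA and HBEGF, while ERBB2 has no known ligand of its own and acts as the partner of the other receptors. ERBB3 and ERBB4 bind neuregulins such as NRG1, and ERBB3 has little kinase activity of its own. The ligands are made as membrane proteins and released by proteases, and EGFR signalling has long been studied in pancreatic cancer.

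The values were read as log2 CPM, read counts scaled to the size of each library, with every value under 0 set to 0, so that 0 stands for at most 1 CPM. Whole reads could be worked back from them. The parental libraries held 14168340, 13366089 and 12710730 reads on genes above 1 CPM, the TalaR-M libraries 14973847, 8387755 and 12597635, and the TalaR-DF libraries 13936867, 13153378 and 12213605. Of the epithelial markers, KRT7, KRT8, KRT18, KRT19 and EPCAM were above 1 CPM and CDH1, which encodes E-cadherin, was listed at 0 in all 9 libraries. The sum of these 6 markers, with KRT8 the most abundant, was 1132, 1078 and 1105 CPM in parental, 1847, 5773 and 1701 CPM in TalaR-M and 1085, 949 and 978 CPM in TalaR-DF cells, so it was highest in TalaR-M cells, as were HBEGF and ERBB2. KRT19 and EPCAM were called higher, by log2 changes of 2.62 and 1.20, when TalaR-M cells were set against parental ones. Of all genes 5.53% were called higher there. KRT19 was at 7.92, 9.53 and 7.81 log2 CPM in TalaR-M cells. Its mean there was 7.87 without replicate 2, against 5.80 in parental cells, and both genes were also called without that library. In TalaR-DF against parental cells KRT7 was the 1 marker of this list called, and it was lower there, where 7.49% of all genes were called lower. The 6 fibroblast markers, most of all COL3A1, were also present, with 5 of 6 above 1 CPM in each library and a sum of 1724, 1724 and 1798 CPM in parental, 3378, 1212 and 3319 CPM in TalaR-M and 931, 967 and 856 CPM in TalaR-DF cells. In TalaR-M cells these markers did not move together. In TalaR-M against parental cells COL1A1 was higher, with a log2 change of 1.97, and DCN was above 1 CPM in TalaR-M cells alone. LUM and PDGFRB were lower, with log2 changes of -3.50 and -2.93, and COL1A2, at 7.86, 7.85 and 7.88 log2 CPM in parental cells, was listed at 0 in all 3 TalaR-M libraries. In TalaR-DF against parental cells 4 of the 6 were called lower and 0 higher, where 7.49% of all genes were called lower. They were COL1A2 (-4.10), PDGFRB (-3.27), COL1A1 (-2.68) and LUM (-1.78), and the median log2 change of the 6 markers was -2.23. The leukocyte marker CD14 (log2 changes of -1.96 and -3.24) and the endothelial marker PECAM1 (-1.53 and -2.17) were called lower in TalaR-M and in TalaR-DF cells, while PTPRC, another leukocyte marker, was at 0 in parental and at 1.79, 0 and 0.83 log2 CPM in TalaR-M cells, and CD3E and VWF were listed at 0 in all 9 libraries. The part of these markers in the results below was not tested. Fewer cells expressing a gene and less RNA per cell cannot be told apart in such bulk libraries.

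TalaR-M replicate 2 stood apart from all other libraries. It was the shallowest of the 9, and compared with the mean of TalaR-M replicates 1 and 3 it was higher in short and lower in long transcripts. Over 9866 genes with a known length, the median deviation fell from 1.21 on the log2 scale in the shortest decile of length, 396 to 1753 bases, to -1.43 in the longest, 8237 bases or more. EGFR, with a longest transcript of 9905 bases, was 1.99 lower in that library by log2, since its value was 5.19 against 7.20 and 7.17. EREG deviated by -2.17 and TGFA by -1.63, where the median of their length decile was -0.61. ERBB2 deviated by -0.44, AREG by 0.38 and HBEGF by 0.16. EREG, TGFA and EGFR were thus the family members this library moved most, and their comparisons with TalaR-M cells are given with and without it.

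**Figure D1:**
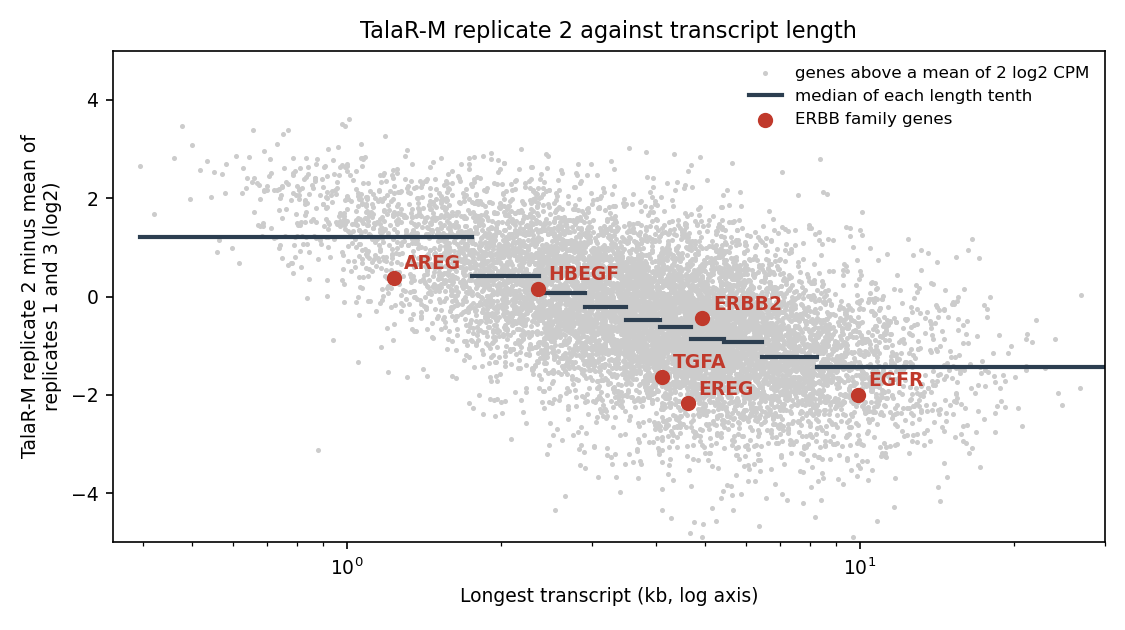
Difference between TalaR-M replicate 2 and the mean of the other two TalaR-M libraries (y axis, log2) against the length of the longest transcript (x axis, kilobases, log axis), with each gene in grey, the median of each length decile as a bar and 6 ERBB family genes in red. The medians go from 1.21 to -1.43, and EREG at -2.17, EGFR at -1.99 and TGFA at -1.63 lie below the median of their length decile.

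The promoters of EREG, AREG and HBEGF are shown because these ligands took different courses, with EREG and AREG next to each other on chromosome 4. EREG starts at position 74365145 and AREG at 74445136, 80.0 kb further on and on the same strand, with EPGN before them and BTC behind. Each line holds the 250 bases before the start of the gene, from RefSeq on GRCh38.p14, at chr4:74364895-74365144 (plus strand) for EREG, chr4:74444886-74445135 (plus strand) for AREG and chr5:140346604-140346853 (minus strand) for HBEGF. Capitals mark matches, on either strand, to a TATA box (TATAAA), a TEAD motif (GGAATG), a CRE motif (TGACGTCA) or an ETS motif (CCGGAA). An AP-1 motif (TGANTCA) was searched as well, and no matches overlapped.
EREG: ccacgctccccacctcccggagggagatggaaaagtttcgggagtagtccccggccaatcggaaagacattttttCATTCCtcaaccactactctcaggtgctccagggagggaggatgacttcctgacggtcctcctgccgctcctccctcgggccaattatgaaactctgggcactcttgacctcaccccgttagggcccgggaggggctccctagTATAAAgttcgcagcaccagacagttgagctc
AREG: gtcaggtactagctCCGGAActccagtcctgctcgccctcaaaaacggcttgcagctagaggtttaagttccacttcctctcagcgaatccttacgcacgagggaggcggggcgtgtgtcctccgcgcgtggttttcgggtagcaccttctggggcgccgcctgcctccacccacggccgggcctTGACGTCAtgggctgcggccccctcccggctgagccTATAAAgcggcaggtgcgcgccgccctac
HBEGF: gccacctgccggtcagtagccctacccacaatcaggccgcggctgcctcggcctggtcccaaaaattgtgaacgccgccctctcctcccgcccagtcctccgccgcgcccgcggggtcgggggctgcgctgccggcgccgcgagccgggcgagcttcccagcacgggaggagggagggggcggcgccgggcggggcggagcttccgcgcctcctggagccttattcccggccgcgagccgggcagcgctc
EREG and AREG both held a TATA box, 32 and 29 bases before the start, which 8.94% of 14236 promoters of this length held. EREG held a TEAD motif on the minus strand 175 bases before its start (10.0% of promoters held it). AREG held a CRE motif 65 bases before its start (2.33%) and an ETS motif 236 bases before it (19.6%). None of these letters was in the HBEGF, TGFA, EGFR or BTC window, and the HBEGF window was 76.4% G and C against 58% for EREG. The ERBB2 window had an AP-1 motif 222 bases before the start (5.0%) and ETS motifs 25 and 14 bases before it, and the ERBB4 window had an ETS motif at 143 bases. There was no entry to search for ERBB3 and NRG1. A match is a description of the letters and not a bound site.

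Of the 10 genes, 7 passed the filter of more than 1 CPM in at least 3 libraries and were tested. ERBB4, a neuregulin receptor, and the ligands NRG1 and BTC were listed at 0 in all 9 libraries. ERBB3 passed through the parental group alone and had to differ, so the counts below are over the other 6 tested genes. A gene was called when limma gave an adjusted p under 0.05, over all 12471 genes tested, together with a change of at least 2-fold.

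The levels of the 10 genes in parental cells were compared per kilobase of merged exons. EREG was at 15.1 ± 1.06 CPM per kb (SD, n = 3), EGFR at 9.20 ± 0.0967, AREG at 6.09 ± 0.929, TGFA at 4.17 ± 0.158, ERBB2 at 2.97 ± 0.259, HBEGF at 1.74 ± 0.184 and ERBB3 at 0.153 ± 0.0556. Neighbours in this order were separated by more than their SDs. Among the other ligands of the family, NRG2 was at 0.742 ± 0.106 CPM per kb, EGF and NRG4 were at or near the floor of 1 CPM, and EPGN and NRG3 were listed at 0 in every library. In TalaR-M cells ERBB2 was at 5.44 ± 0.899 CPM per kb and EGFR at 6.85 ± 3.95, where the spread of EGFR came from replicate 2. Over TalaR-M replicates 1 and 3, EGFR was at 9.13 ± 0.151 and ERBB2 at 5.96 ± 0.0583 CPM per kb (SD, n = 2), so EGFR was still above ERBB2 there. In TalaR-DF cells EREG at 7.92 ± 0.810 and EGFR at 7.24 ± 0.511 did not differ beyond their spread either.

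**Figure D2:**
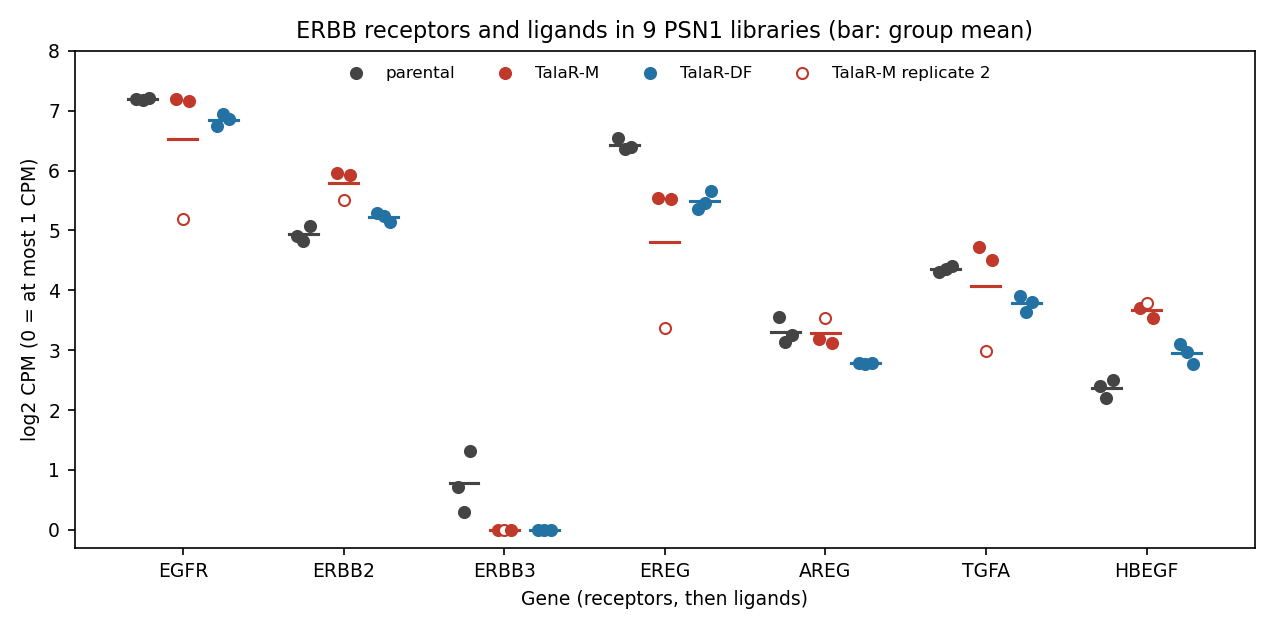
Level of 7 ERBB family genes (y axis, log2 CPM, where 0 is at most 1 CPM) in each of the 9 libraries, by gene (x axis) and group, with bars at the group means and TalaR-M replicate 2 as an open circle. HBEGF and ERBB2 are highest in TalaR-M and lowest in parental cells, and ERBB3 is above 0 in the 3 parental libraries and at 0 in the other 6.

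The TalaR-M and parental groups ask which genes differed in cells kept on Talazoparib. HBEGF, a ligand of EGFR and ERBB4 that also binds heparin, was called higher, and ERBB2 rose by somewhat less than 2-fold. EREG, the most abundant ligand of parental cells, was lower in all 3 TalaR-M libraries, and EGFR and AREG were not called. Of the 6 genes 1 was called and 2 passed the adjusted p at any fold, where 13.3% and 23.6% of all genes tested did. The median change over the 6 genes was -0.16 by log2, against -0.09 over all genes tested.

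HBEGF (chr5:140332843-140346603) was at 2.41, 2.20 and 2.51 log2 CPM in parental cells, from 77, 63 and 74 reads. In TalaR-M cells it was at 3.70, 3.78 and 3.54, from 203, 103 and 162 reads. All 3 TalaR-M libraries lay above all parental libraries, and groups did not overlap for 49.8% of all genes tested. HBEGF was 2.46-fold higher (log2 1.30 ± 0.16 SE, adjusted p = 0.000662), with a 95% interval of 1.91- to 3.17-fold. Without TalaR-M replicate 2 it was 2.37-fold higher (adjusted p = 1.81e-05). With 8 CPM added to every value before taking logs, its log2 change was 0.65, short of 2-fold.

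ERBB2 (chr17:39687914-39730426), the receptor without a ligand of its own, was at 4.91, 4.83 and 5.07 log2 CPM in parental cells and at 5.95, 5.51 and 5.93 in TalaR-M cells. The groups did not overlap, and TalaR-M replicate 2 was the lowest of its group. ERBB2 was 1.82-fold higher (log2 0.86 ± 0.16 SE, adjusted p = 0.00563), short of the 2-fold threshold. Without TalaR-M replicate 2 the log2 change was 1.01 ± 0.09 (2.01-fold, adjusted p = 1.38e-06), just past the threshold, and 2 of the 6 genes were then called and 3 passed the adjusted p, where 13.9% and 60.2% of all genes did. The ERBB2 gene overlaps PGAP3 and MIEN1 on the other strand. The library kit keeps strand, but whether counting used it was not stated, so reads of the overlaps may be shared.

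EGFR (chr7:55019017-55211628) was the most abundant receptor, with 7.20, 7.18 and 7.21 log2 CPM in parental cells and 7.20, 5.19 and 7.17 in TalaR-M cells. Apart from TalaR-M replicate 2 the groups lay on top of each other. The log2 change of -0.68 ± 0.48 did not pass (adjusted p = 0.324). Without that library it was -0.01, with a 95% interval of -0.15 to 0.13 (adjusted p = 0.901), so that a change of EGFR beyond this interval was not seen in the remaining libraries. The ratio of ERBB2 to EGFR, per kb of exons, was 0.316, 0.303 and 0.351 in parental, 0.650, 1.92 and 0.656 in TalaR-M and 0.568, 0.477 and 0.470 in TalaR-DF libraries. The 3 groups did not overlap in this ratio, and TalaR-M replicate 2 was far above the rest.

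ERBB3 (chr12:56076799-56103505), which signals in pairs with ERBB2, was at 0.71, 0.29 and 1.32 log2 CPM in parental cells, from 23, 16 and 32 reads. It was listed at 0 in all 6 TalaR libraries. Set against the floor of 1 CPM, its mean log2 level in parental cells was at least 1.71-fold higher than in TalaR-M or TalaR-DF cells. These values are a description, since a gene at 0 in both TalaR groups could enter the test only by being above the floor in parental cells. An unnamed gene model on the same strand overlaps ERBB3, so its reads are uncertain.

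EREG (chr4:74365145-74388749), a ligand of EGFR and ERBB4, was at 6.54, 6.36 and 6.39 log2 CPM in parental cells and at 5.55, 3.36 and 5.52 in TalaR-M cells. All 3 TalaR-M libraries were below all parental ones. The log2 change of -1.62 ± 0.52 missed the threshold (adjusted p = 0.0567), and the SD within TalaR-M was 1.25 against 0.10 in parental cells. Without TalaR-M replicate 2 EREG fell by 0.90 on the log2 scale (SE 0.09, adjusted p = 5e-06), a 1.86-fold lower level. Its 95% interval was -1.09 to -0.70, so whether EREG changed by 2-fold depended on that library. With all libraries, EREG passed and was called with 8 CPM added (log2 change -1.32, adjusted p = 0.0364) and with median-ratio rescaling (-1.51, adjusted p = 0.0391).

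AREG (chr4:74445136-74455005), a ligand of EGFR alone, was at 3.55, 3.13 and 3.26 log2 CPM in parental and 3.19, 3.54 and 3.12 in TalaR-M cells. The groups overlapped, and the log2 difference of -0.03 had a 95% interval of -0.43 to 0.37 (adjusted p = 0.910). It was -0.16 without TalaR-M replicate 2 (adjusted p = 0.336). TGFA (chr2:70447284-70554193), another EGFR ligand, was at 4.30, 4.36 and 4.41 in parental and 4.72, 2.98 and 4.51 in TalaR-M cells. TalaR-M replicates 1 and 3 were above, and replicate 2 below, every parental library. The log2 difference of TGFA was -0.29 (adjusted p = 0.616) with all libraries and 0.25 without replicate 2 (adjusted p = 0.0659), and neither passed.

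**Figure D3:**
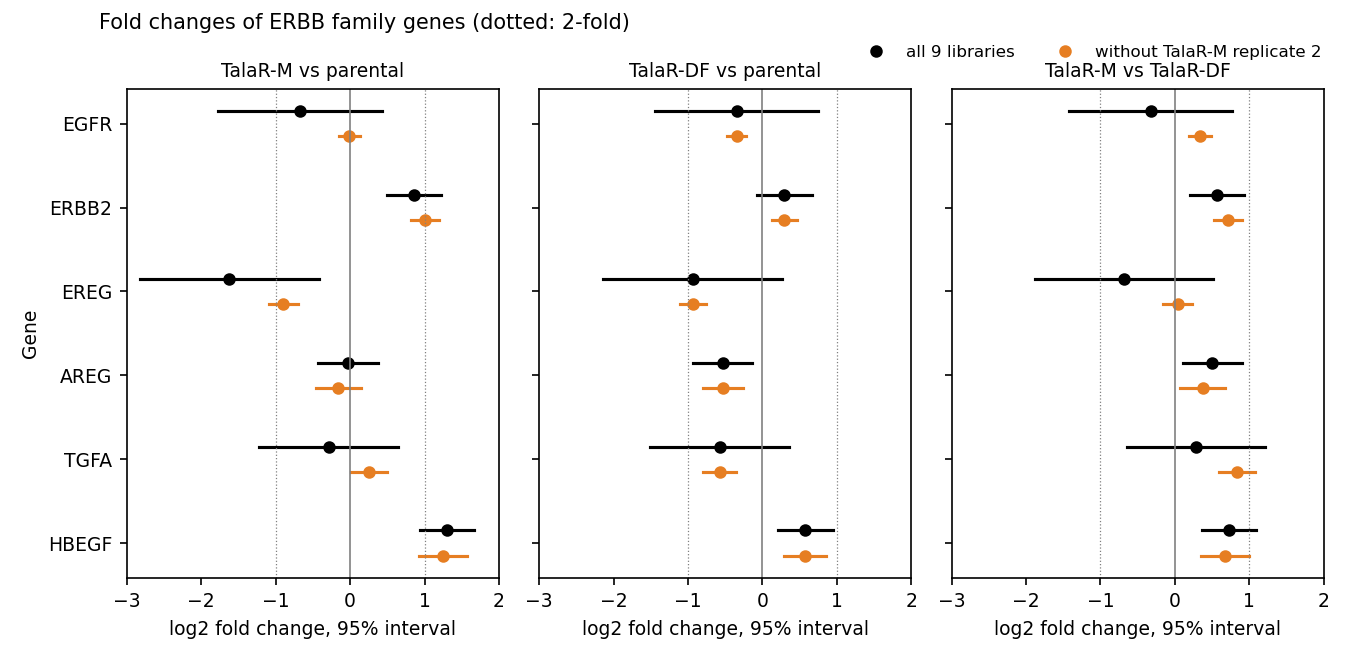
log2 fold changes with 95% intervals (x axis) of 6 ERBB family genes (y axis) in the 3 comparisons, from all 9 libraries in black and without TalaR-M replicate 2 in orange, with dotted lines at 2-fold. HBEGF at 1.30 lies past 2-fold in TalaR-M against parental cells, and leaving out the library moves EGFR from -0.68 to -0.01 and EREG from -1.62 to -0.90.

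The TalaR-DF and parental groups ask what differed after the drug was withdrawn. HBEGF stayed higher than in parental cells, and EREG, AREG, TGFA and EGFR were lower in all 3 TalaR-DF libraries. Of the 6 genes 0 were called by limma, where 9.73% of all genes were, and 1, HBEGF, passed the adjusted p, where 18.6% of all genes did. These groups share the parental libraries with the comparison above, so their changes are not independent of it.

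HBEGF was at 3.10, 2.97 and 2.76 log2 CPM in TalaR-DF cells, from 124, 107 and 85 reads, and was 1.49-fold higher than in parental cells (log2 0.57 ± 0.16 SE, adjusted p = 0.0398). Over the alternatives its adjusted p ranged from 0.00074 to 0.161, so that not all of them passed. EREG was at 5.37, 5.46 and 5.65, a log2 difference of -0.94 ± 0.52 that did not pass (adjusted p = 0.291). AREG was at 2.78, 2.77 and 2.78, with a log2 difference of -0.53 ± 0.17 (adjusted p = 0.0704). TalaR-DF lay wholly above parental for HBEGF and wholly below it for EREG and AREG, while 68.5% of all genes had groups that did not overlap. TGFA was at 3.90, 3.64 and 3.81 (log2 difference -0.58, adjusted p = 0.422) and EGFR at 6.74, 6.94 and 6.86 (-0.35, adjusted p = 0.725). ERBB2 was at 5.29, 5.25 and 5.15, above every parental library, with a log2 difference of 0.29 (adjusted p = 0.277).

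These tests used 1 estimate of the spread for all groups, and the SE of EREG was 0.52 with TalaR-M replicate 2 and 0.08 without it. Without that library the same differences passed for EREG (adjusted p = 1.28e-06), EGFR (0.000286), TGFA (0.000329), HBEGF (0.00228), AREG (0.00244) and ERBB2 (0.00595). These were 6 of 6 genes, where 62.9% of all genes passed, and none of them reached 2-fold. EREG fell by 0.94 on the log2 scale, with a 95% interval of -1.11 to -0.76.

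The TalaR-M and TalaR-DF groups compare selected cells on and off Talazoparib. HBEGF was 1.65-fold higher in TalaR-M cells (log2 0.73 ± 0.16 SE, adjusted p = 0.0229), with the groups not overlapping, as for 40.8% of all genes. Its adjusted p ranged from 0.00259 to 0.0984 over the alternatives. Of the 6 genes 0 were called by limma, where 6.93% of all genes were, and HBEGF alone passed the adjusted p, where 12% of all genes did. ERBB2 was higher in all 3 TalaR-M libraries by 0.57 (adjusted p = 0.0554), and AREG by 0.50 (adjusted p = 0.101). HBEGF and ERBB2 thus had the same order of group means, parental, TalaR-DF and TalaR-M from low to high.

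Without TalaR-M replicate 2, TGFA was 1.78-fold higher in TalaR-M than in TalaR-DF cells (adjusted p = 9.02e-05), ERBB2 1.64-fold (4.39e-05), HBEGF 1.59-fold (0.00259), AREG 1.30-fold (0.0396) and EGFR 1.26-fold (0.00132). These were 5 of the 6 genes, where 48.8% of all genes passed. EREG differed by 0.04 on the log2 scale, with a 95% interval of -0.16 to 0.24 (adjusted p = 0.756). Of the 4 tested ligands among the 10 genes, EREG was the one whose level in cells on the drug did not pass against that in cells off it in either fit. With all libraries the log2 differences of TGFA and EGFR were 0.29 (adjusted p = 0.623) and -0.33 (adjusted p = 0.634), and with all libraries weighted by quality they were 0.81 (adjusted p = 0.000195) and 0.31 (adjusted p = 0.0114).

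The make-up of the ligands was described as each ligand's share of their summed CPM per kb, with ligands listed at 0 counted as 0. The sum itself was 30.1, 26.3 and 27.8 CPM per kb in parental, 24.6, 16.2 and 22.9 in TalaR-M and 18.5, 17.8 and 19.1 in TalaR-DF libraries. Every TalaR library was below every parental one in this sum, so a share can grow or hold steady while the level of its ligand does not. EREG made up 54.3, 54.4 and 52.9% in parental, 33.2, 11.1 and 35% in TalaR-M and 39.1, 43.5 and 46.0% in TalaR-DF libraries. HBEGF made up 5.90, 5.84 and 6.84% in parental, 17.7, 28.4 and 16.9% in TalaR-M and 15.6, 14.8 and 11.9% in TalaR-DF libraries. In every TalaR library the share of EREG was smaller, and that of HBEGF larger, than in any parental library. The ratio of EREG to HBEGF by CPM was 17.6, 17.8 and 14.8 in parental, 3.60, 0.749 and 3.96 in TalaR-M and 4.80, 5.62 and 7.41 in TalaR-DF libraries. TalaR-M replicate 2 was the only library with a higher CPM of HBEGF than of EREG. AREG held between 20.3 and 23.7% in all libraries but TalaR-M replicate 2, where it held 43.7%. Its level was nonetheless lower in TalaR-DF than in parental cells, at 4.18 ± 0.0122 against 6.09 ± 0.929 CPM per kb (SD, n = 3). The level of HBEGF was higher, at 2.59 ± 0.304 against 1.74 ± 0.184 CPM per kb.

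**Figure D4:**
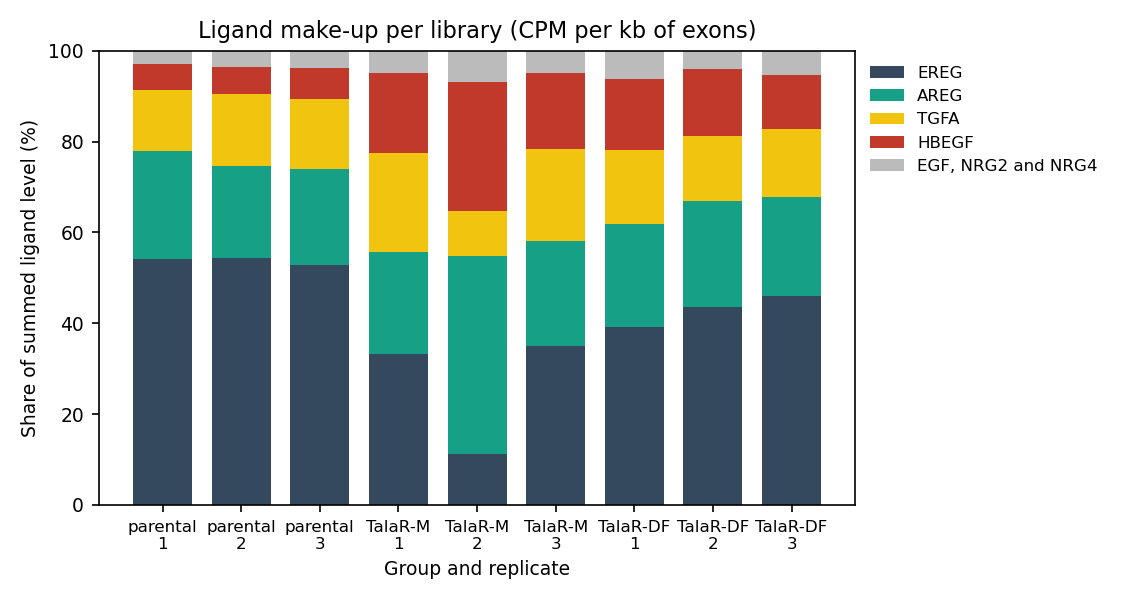
Share of each ERBB ligand in the summed ligand level (y axis, percent of CPM per kb of exons) in each library (x axis, group and replicate). EREG takes 52.9 to 54.4% in parental libraries and at most 46.0% in TalaR ones, and HBEGF goes from at most 6.84% to at least 11.9%.

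Other genes of the pathway were followed in 4 lists. Ligand shedding covers proteases and iRhoms that release the ligands, partners of the iRhoms, and TIMP3, an inhibitor of ADAM proteases. No gene of this list was called higher, and RHBDF2, an iRhom that escorts the protease ADAM17, was the 1 of 9 called lower in TalaR-M against parental cells, where 7.72% of all genes were. It was at 5.89, 5.75 and 5.83 log2 CPM in parental and 4.85, 4.36 and 5.04 in TalaR-M cells, a log2 change of -1.07 ± 0.19 (adjusted p = 0.00407). Without TalaR-M replicate 2 its change of -0.88 (adjusted p = 5.58e-06) was short of 2-fold. It was also short with median-ratio rescaling (-0.96) and array weights (-0.86). In the fit without that library TIMP3 was called higher with a log2 change of 2.01, where 846 of all 12471 genes were. TIMP3 was near the floor, at 0, 0.20 and 1.23 log2 CPM in parental and 2.37, 0 and 2.61 in TalaR-M cells. RHBDF1, the other iRhom, was the 1 of 9 called lower in TalaR-DF cells, where 7.49% of all genes were, with a log2 change of -1.36 ± 0.15 (adjusted p = 0.000371).

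The signal relay list holds adaptors, RAS, RAF, MEK, ERK, PI3K, AKT and STAT genes. Of its 29 genes, 3 were called lower and 0 higher by limma in TalaR-M against parental cells, and 3 lower and 0 higher in TalaR-DF against parental cells, where 7.72% and 7.49% of all genes were called lower. At any fold 5 and 3 of the 29 passed the adjusted p, where 23.6% and 18.6% of all genes did. GAB2, an adaptor that couples receptors to PI3K, and STAT5A, a transcription factor, were among the called genes in both comparisons, which share the parental libraries. GAB2 was at 2.33, 2.49 and 2.43 log2 CPM in parental, 0.74, 0 and 1.05 in TalaR-M and 0.14, 0 and 0 in TalaR-DF cells, where 0 is at most 1 CPM, and every TalaR library lay below every parental one. The fitted log2 changes of GAB2 were -1.82 (adjusted p = 0.00106) and -2.37 (adjusted p = 0.000288), and those of STAT5A -1.08 (adjusted p = 0.00221) and -2.17 (adjusted p = 5.11e-05). The change of STAT5A in TalaR-M cells was close to the threshold and was short of 2-fold with 1 CPM added (-0.99), with 8 CPM added (-0.64) and with median-ratio rescaling (-0.97). STAT5A was also the 1 gene of the list called between the TalaR groups, higher in TalaR-M cells by 1.09, which was 0.92 with 1 CPM added. The list's medians of -0.37 and -0.11 stood beside -0.09 and 0.01 over all genes. When TalaR-M replicate 2 was left out, GAB2 was at -1.52 and STAT5A at -1.15 in TalaR-M cells, and the list median there was -0.11. In that fit SOS1, which loads RAS with GTP, was called higher in TalaR-M (1.45) and in TalaR-DF cells (1.06), so 4 of the 29 were called in each, where 13.9% and 11.4% of all genes were, and 19 of the 29 passed the adjusted p in each, where 60.2% and 62.9% did.

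Feedback and turnover genes restrain the receptors or ERK, and ERK output genes are induced by ERK. DUSP4, DUSP5, DUSP6, SPRY2 and SPRY4 are in both lists. Of 21 feedback genes tested, 8 were called lower and 1 higher in TalaR-M against parental cells, where 7.72% of all genes were called lower and 5.53% higher. Of the 17 ERK output genes 8 were called lower and 0 higher. The list medians were -1.17 and -0.97 on the log2 scale, against -0.09 over all genes. When TalaR-M replicate 2 was left out, medians of -0.64 and -0.69 stood beside 0.01 over all genes, and 8 and 7 genes were called lower, where 7.07% of all genes were. In that fit 2 feedback genes, LRIG1 and CBLB, and 0 ERK output genes were called higher, where 846 of all 12471 genes were. The log2 change of CBLB was 1.04 (adjusted p = 2.52e-06).

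DUSP6, the phosphatase that inactivates ERK, was at 8.92, 8.87 and 8.82 log2 CPM in parental, 6.40, 5.58 and 6.29 in TalaR-M and 7.02, 6.97 and 7.05 in TalaR-DF cells. It fell by 2.78 in TalaR-M (SE 0.21, adjusted p = 3.52e-05) and by 1.86 in TalaR-DF cells (adjusted p = 0.000479), and the log2 change in TalaR-M cells was -2.53 without replicate 2. The 3 groups were fully apart, with parental highest. DUSP5, a nuclear ERK phosphatase, was at 7.08, 7.13 and 7.11 in parental, 5.24, 5.04 and 5.04 in TalaR-M and 6.30, 6.25 and 6.16 in TalaR-DF cells, and fell by 2.00 in TalaR-M cells (adjusted p = 7.72e-06), or by 1.96 without replicate 2. It was lower in TalaR-M than in TalaR-DF cells by a log2 difference of -1.13 (adjusted p = 0.000538), which was -0.98 with median-ratio rescaling, short of 2-fold. SPRY4 and SPRY1, Sprouty inhibitors of RAS and ERK signalling, fell by 2.15 (adjusted p = 0.00341) and 1.98 (adjusted p = 0.0201) in TalaR-M cells, and by 1.66 and 1.31 without replicate 2. SPRY1 missed the adjusted p with no filter (0.0525), when only the groups compared were fitted (0.0797) and without any of the parental libraries (0.0672 to 0.0704). LRIG1, which promotes the degradation of ERBB receptors, was the feedback gene called higher. It was at 3.40, 3.34 and 3.34 in parental, 5.57, 3.98 and 5.46 in TalaR-M and 4.69, 4.78 and 4.56 in TalaR-DF cells, a log2 change of 1.64 ± 0.38 (adjusted p = 0.0164) and of 1.32 ± 0.38 (adjusted p = 0.0464). The change in TalaR-M cells was 2.15 without replicate 2. The change in TalaR-DF cells missed the adjusted p with no filter (0.103), with 8 CPM added (0.0708) and without any of the parental or TalaR-DF libraries (0.115 to 0.141).

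In TalaR-DF against parental cells, 3 feedback genes were called lower and 1 higher, and 2 ERK output genes lower and 1 higher, where 7.49% and 2.25% of all genes were. The medians were -0.45 and -0.49 against 0.01 over all genes. Beside DUSP6, the genes lower were DUSP4, another nuclear phosphatase of ERK (-1.40, adjusted p = 0.000657), and SPRED3, an inhibitor of RAS signalling (-1.55, adjusted p = 0.00172). MYC, the transcription factor, was the gene higher, at 9.99, 9.84 and 9.86 log2 CPM in parental and between 10.92 and 11.04 in TalaR-DF cells (log2 change 1.09, adjusted p = 0.0107, or 0.0505 without parental replicate 2). In TalaR-M cells MYC was at 9.62, 8.77 and 9.49, below both other groups, and its log2 difference from TalaR-DF cells was -1.70 (adjusted p = 0.00212), or -1.43 without replicate 2. Between the TalaR groups 2 feedback genes and 3 ERK output genes were called lower in TalaR-M cells and 0 higher by limma, where 1.64% of all genes were lower and 5.29% higher, and 3 and 4 passed the adjusted p at any fold, where 12% of all genes did. They were DUSP5 and SPRY4, which are in both lists, and MYC. SPRY4 was lower in TalaR-M cells by -1.41 (adjusted p = 0.0395). This was -0.92 without replicate 2, short of 2-fold, and it missed the adjusted p with no filter (0.0863) and when only the groups compared were fitted (0.169). Leaving out any other library but TalaR-M replicates 1 and 3 also ended the call, with adjusted p up to 0.124. When TalaR-M replicate 2 was left out, 1 feedback gene (DUSP5) and 2 ERK output genes (DUSP5 and MYC) were called lower, and EPHA4, an ephrin receptor of the ERK output list, was called higher with a log2 difference of 1.51, where 8.36% of all genes were called. The list medians were -0.92 and -0.40 with all libraries and -0.08 and -0.36 in that fit.

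**Figure D5:**
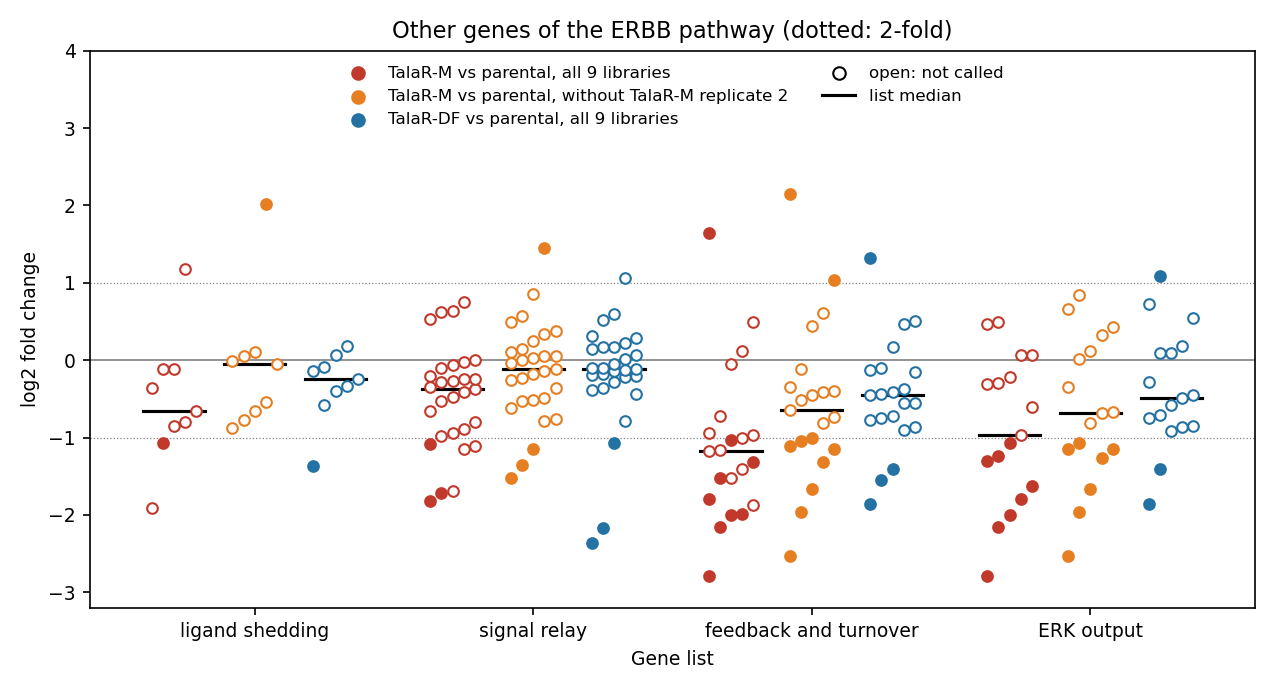
log2 fold changes (y axis) of the tested genes in 4 lists (x axis) for TalaR-M against parental cells with all libraries (red) and without TalaR-M replicate 2 (orange) and for TalaR-DF against parental cells (blue), with filled points for called genes and bars at list medians. The feedback and ERK output medians in TalaR-M cells are -1.17 and -0.97, and -0.64 and -0.69 without replicate 2.

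The genes whose profile was closest to that of the 3 ERBB family genes with the largest range of group means were found among 9519 genes with a mean of at least 3 log2 CPM, by the root mean square difference of values centred on each gene's own mean. Over the 9 libraries ARRDC3, NCOA3 and NPC1 were closest to EREG, at 0.0759, 0.0916 and 0.112. ATL3, TUBB2A and HCN2 were closest to HBEGF, at 0.118, 0.120 and 0.142, and SEMA4F, GALNT10 and TCF19 to ERBB2, at 0.0787, 0.0798 and 0.102. Over the 8 libraries without TalaR-M replicate 2 the closest were ZEB2, CDKN2B and ARRDC3 for EREG, BLVRB, ATL3 and ETS2 for HBEGF, and SEMA4F, GALNT10 and PTGFRN for ERBB2. ARRDC3, ATL3, SEMA4F and GALNT10 were close in either set of libraries.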

How the data were processed

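RNA was sequenced as paired reads of 150 bases from 9 PSN1 libraries. The deposited values were read as log2 CPM with a prior count, with values under 0 set to 0. This reading was inferred from the values themselves. The submitters' notes name hg38, and the aligner, counter and annotation are not given in the sources used here. Whole reads (within 0.1) came out for 100% of values under 50 CPM. GENCODE 44 on GRCh38 supplied positions and lengths (88.3% of genes matched by symbol). The 12471 genes with more than 1 CPM in 3 or more libraries were fitted with limma 3.58.1 (R 4.3.3) in 1 model of 3 groups with a mean-variance trend and Benjamini-Hochberg adjustment. An exact permutation test of 3 against 3 cannot go below 0.1 and was not used. Depth limits low genes, and read counts cover counting error only. Alternatives changed the pseudocount (1 or 8 CPM added), filter (5 CPM or none), scaling, weights, trend, groups fitted, replicate block, fold threshold and libraries. The 10 genes and the lists were chosen with earlier results of these data known. From each list, at most 4 called genes per comparison were named, those with the largest change, and LRIG1 in TalaR-M cells, the marker genes and genes called only without TalaR-M replicate 2 were named after their values were seen. Values of 1 signal relay gene and 1 marker are not reported here.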

Additional observations from a re-analysis of the deposited data

How the results depend on the processing

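The direction and the side of the threshold of the ERBB family genes were kept in 354 of their alternatives, with 9 gaining and 1 losing a call and 11 reversing in sign. ERBB3, which had to differ from parental cells, is part of these numbers. It was kept in 15, 15 and 17 alternatives of the 3 comparisons and gained a call in 2, 2 and 0. Between the TalaR groups it was at 0 in every library, so its result there was fixed. The lost call was HBEGF in TalaR-M against parental cells with 8 CPM added (0.65). Of the reversals, none of which concerned a called value, AREG in TalaR-M against parental cells was 0.081 with median-ratio rescaling, and between -0.16 and 0.088 when replicates were left out (above 0 without parental replicate 1 and without TalaR-M replicate 1 or 3). TGFA there was 0.22 with array weights, and between -0.61 and 0.25 (without TalaR-M replicate 2). Between the TalaR groups EGFR was 0.31 and EREG 0.027 with array weights. With replicates left out EGFR ranged from -0.67 to 0.34 and EREG from -1.05 to 0.039, both highest without TalaR-M replicate 2, and TGFA from -0.037 (without TalaR-M replicate 1) to 0.83. Array weights gave TalaR-M replicate 2 a weight of 0.0133. Its median offset from the gene means was -0.33, and median-ratio rescaling subtracted this offset, which raised its values.

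All genes called were 1653 for TalaR-M and 1214 for TalaR-DF, each against parental cells, and 864 between the TalaR groups. They became 711, 426 and 272 with 8 CPM added and 2938, 2315 and 1502 with no fold threshold, and the last was 484 when only those groups were fitted. Leaving out each replicate gave 1298 to 2045, 983 to 1417 and 578 to 1043. The family genes called in TalaR-M against parental cells, 1 as reported, were 2 with 1 CPM added (ERBB3) or median-ratio rescaling (EREG), 1 with 8 CPM added (EREG in place of HBEGF), 1 to 2 when replicates were left out (ERBB2 without TalaR-M replicate 2, EREG without TalaR-M replicate 1 or 3, ERBB3 without parental replicate 2) and 3 with no fold threshold. In TalaR-DF against parental cells, 0 as reported, they were 1 with 1 CPM added, 0 to 1 when replicates were left out (ERBB3 without parental replicate 2) and 2 with no fold threshold. Between the TalaR groups they were 0 when replicates were left out and 1 with no fold threshold. ERBB3 counts in these numbers although it had to differ. Of the other pathway genes named, GAB2, LRIG1, SPRED3, RHBDF1, RHBDF2 and STAT5A, and DUSP5 between the TalaR groups, were short of 2-fold with 8 CPM added in at least 1 comparison. The causes were not tested.

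Same-numbered replicates correlated between -0.31 and 0.16 in their deviations from the group means. With 3 libraries per group, and TalaR-M replicate 2 apart from the rest, this cannot decide whether the numbers pair the samples. With the replicate block 1546, 1132 and 750 genes were called, and 1, 0 and 0 family genes, while the calls of LRIG1 in TalaR-DF against parental cells (adjusted p = 0.0729) and of SPRY4 between the TalaR groups (adjusted p = 0.0612) were lost, and HBEGF no longer passed the adjusted p in the same comparisons (0.0913 and 0.0646). No other named gene of the family or of the pathway lists lost its call under the block. The cell type markers were not examined under it.

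Per kb of the longest transcript, parental levels were 18.7 for EREG, 14.8 for EGFR, 8.11 for AREG, 6.23 for ERBB2, 4.98 for TGFA, 2.20 for HBEGF, 0.871 for NRG2 and 0.285 CPM per kb for ERBB3, with ERBB2 then above TGFA.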

Other observations

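The genes around the receptors and ligands were examined for shared changes, a view chosen after the values were seen. Without TalaR-M replicate 2, the 10 nearest tested genes of ERBB2, 5 on each side, had a median log2 change of 0.13 in TalaR-M against parental cells, and 8 of them were higher, beside 1.01 for ERBB2 itself. The neighbours of HBEGF had a median of -0.01 with 5 of 10 higher, beside 1.25 for HBEGF, and those of EREG a median of -0.02 with 5 of 10 higher, beside -0.90 for EREG. The neighbours of EGFR had a median of 0.68 with 8 of 10 higher, while EGFR was at -0.01. Those of TGFA had a median of 0.30 with 8 of 10 higher, beside 0.25 for TGFA. Over all 12471 genes tested in the same fit, 6366 were higher and the median log2 change was 0.01. AREG is among the neighbours of EREG, and NRG2 and CD14 are among those of HBEGF. The neighbours share a chromosome region with each other and are not independent.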
